A study of Mus musculus with 8 samples.

Results

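RNA of 9 genes of pericellular fibrinolysis and coagulation was followed in primary mouse myofibroblastic hepatic stellate cells (pMF-HSCs) given an inhibitor of O-GlcNAc transferase (OGT). The 9 genes were listed by name, as plasminogen activators, their receptors, inhibitors of the serpin family and the cell-surface regulators of clotting, out of 40840 gene rows in the tables. They are Plat and Plau (activators), Plaur and Anxa2 (cell-surface binding), Serpine2, Serpinb2 and Serpinf1 (serpins), and F3 and Thbd (coagulation). All 9 passed the filter on low counts (10 or more in sum) and were among the 19963 genes tested. They are not of one kind. F3 and Thbd are neither activators of plasminogen nor serpins, Plaur and Anxa2 bind rather than cleave, and Serpinf1, although a serpin by its fold, is not a protease inhibitor.

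Plasmin, the protease that dissolves fibrin and also cleaves matrix proteins, is released from plasminogen by tissue-type plasminogen activator (Plat) or urokinase (Plau). Urokinase is held at the cell surface by its receptor Plaur, annexin A2 gathers plasminogen and the tissue-type activator there, and serpins of the E and B clades block the activators by forming covalent complexes with them. Tissue factor (F3) starts clotting by binding factor VII, whereas thrombomodulin (Thbd) turns thrombin towards activation of the anticoagulant protein C. In the injured liver, stellate cells become myofibroblasts that deposit scar matrix, and plasmin and the matrix proteases it activates are known to take part in the removal of that matrix.

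The study asked what loss of OGT activity does to gene expression in these cells. Stellate cells came from wild-type male C57BL/6J mice aged 15 to 18 weeks, were purified by density gradient and by sorting on retinol autofluorescence per the study's methods, and became myofibroblastic during 7 days of culture on plastic. They then received vehicle (DMSO, the control group, 4 libraries) or OSMI-1, a small-molecule OGT inhibitor, at 50 µM for 24 h (the OGTi group, 4 libraries). Both groups shared the wild-type genotype, the culture medium and the days in culture, so the drug is the difference the labels give. Treated and control libraries of the same number were taken as a pair, and the labels call the 4 replicates biological without saying how many mice gave each culture.

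Libraries held 30068876 to 37372420 counts each, and the members' own counts ran from 28 (Plau) to 114848 (Thbd). Counting error was largest for Plau and Serpinf1, the members with the fewest counts. Myofibroblast markers (Acta2, Col1a1, Col1a2, Tagln, Timp1 and Lox) summed to between 4878 and 8793 CPM (counts scaled to a library of common size, here by the library total) in control and between 4927 and 9149 in OGTi libraries, and none of the 6 passed the test in either direction. The sum joins markers of opposite sign, with log2 fold changes of −0.85 for Col1a1 (edgeR adjusted p = 0.0761) and −0.54 for Col1a2 against 0.53 for Tagln and 0.52 for Timp1. Of 7 stellate markers, Lrat and Pdgfrb were lower with OGTi and the summed level ran from 504 to 910 CPM in control and from 347 to 513 CPM in OGTi. Hepatocyte markers summed to no more than 0.696 CPM in any library, with Tat at 0 in all of them. The macrophage list, whose genes include Cd68 and Lyz2, summed to between 44.0 and 110 CPM in control and between 57.0 and 137 CPM in OGTi. The endothelial list summed to between 3.36 and 7.54 CPM and between 1.04 and 2.36 CPM. These are bulk libraries, in which fewer cells of a type and less RNA per cell cannot be told apart.

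Of the 9 members, Plaur and Plat were higher with OGTi and F3 and Thbd were lower, by edgeR's quasi-likelihood test with the replicate number as a block at an adjusted p of at most 0.05. In the same comparison 8.13% of all genes tested were called higher and 10.2% lower. The OGTi libraries lay wholly outside the range of the control libraries for 2 of the 9, Plaur and F3, where 23.5% of all genes tested did so. All 4 pairs moved the same way for 4 of the 9 (Plat, Plau, Plaur and F3), where 41.3% of all genes did so. F3, the initiator of clotting, had the largest difference of the 9, at 5.08-fold lower. The median difference over all genes was 0.01 on the log2 scale, so the members' differences were read against a centre close to 0. Of all calls 44.3% were higher, and with scaling by library totals alone 30.1% were.

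**Figure D1:**
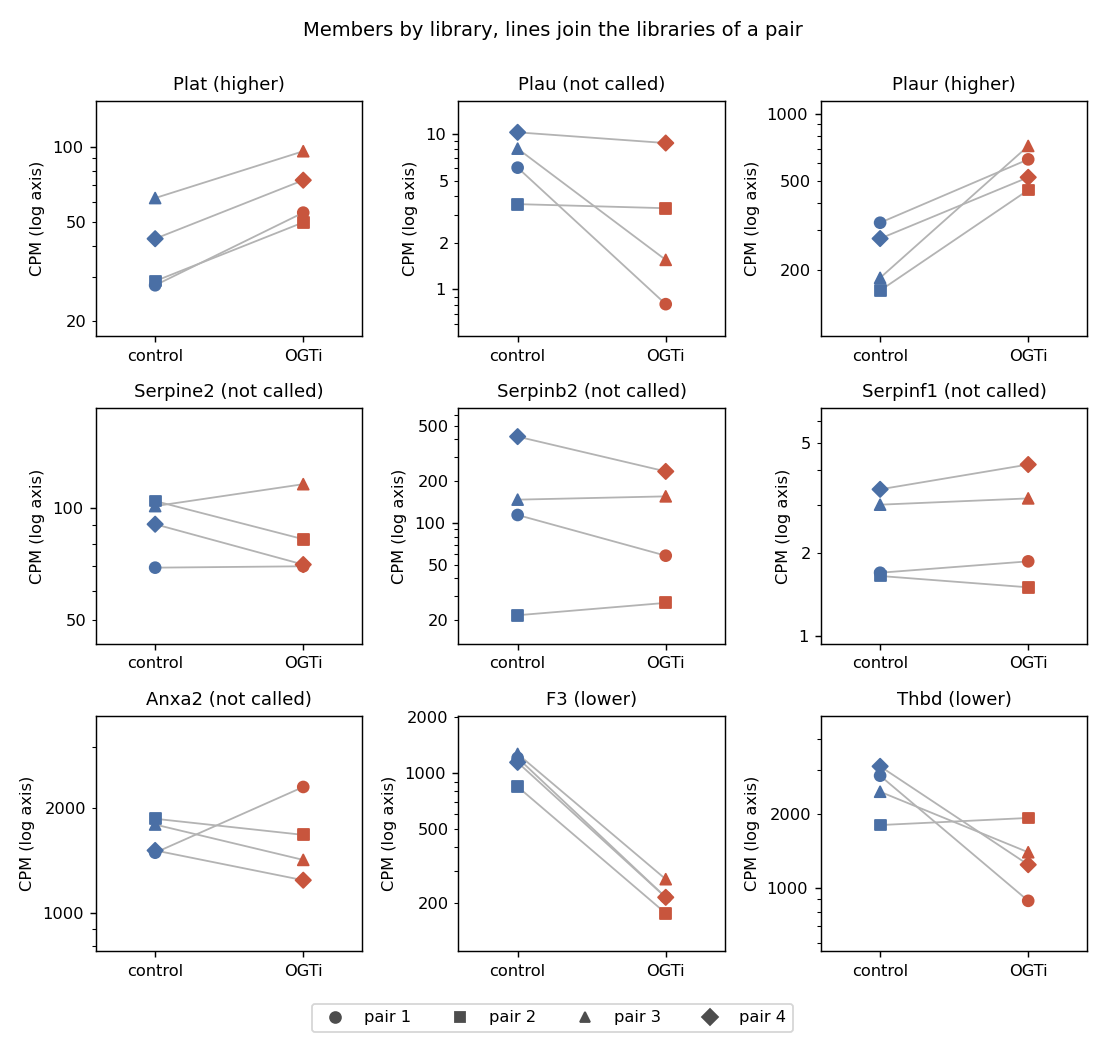
CPM, scaled by the TMM-adjusted library size, in each of the 8 libraries for the 9 members, on a log axis, with lines joining the control and OGTi libraries of the same replicate number. The 4 OGTi libraries lay above the 4 control libraries for Plaur and below them for F3, and the groups overlapped for the other 7 genes.

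Levels were first set side by side in TPM, the share of transcripts scaled by transcript length. In control cells the order of mean TPM was Anxa2 (2223 ± 268, SD, n = 4), Thbd (1271 ± 287), F3 (1180 ± 209.9), Plaur (313 ± 99.7), Serpinb2 (175 ± 170.2), Serpine2 (80.6 ± 14.5), Plat (31.9 ± 13.3), Plau (5.91 ± 2.46) and Serpinf1 (3.37 ± 1.28). Neighbours whose ranges over the 4 control libraries did not separate were Thbd and F3, Plaur and Serpinb2, Serpinb2 and Serpine2, and Plau and Serpinf1. The ranges of Anxa2 and Thbd, of F3 and Plaur, of Serpine2 and Plat, and of Plat and Plau did separate. Anxa2, Thbd and F3 were thus the most abundant of the 9 RNAs, above the 99th percentile of genes tested, while RNA for urokinase itself stood at the 59.5th percentile and its receptor at the 96.8th.

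With OGTi the order of mean TPM changed in its upper part and at its end, where Plau and Serpinf1 changed places with overlapping ranges. Anxa2 stayed first at 1750 ± 379 TPM, and Plaur came next at 610 ± 95.9, ahead of Thbd at 559 ± 238, with the ranges of Plaur and Thbd overlapping. F3 followed at 185 ± 29.7, and the ranges of Thbd and F3 separated in the OGTi libraries although they overlapped in control. Serpinb2 (94.2 ± 77.5), Serpine2 (60.1 ± 17.1) and Plat (43.0 ± 13.4) came next, each overlapping in range the gene before it, and Serpinf1 (2.95 ± 1.403) and Plau (2.53 ± 2.50) closed it. The 9 genes together made up 0.457% to 0.571% of all TPM in control libraries and 0.291% to 0.379% in OGTi libraries. TPM is not rescaled for differences in composition between libraries, so the tests below rest on counts.

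**Figure D2:**
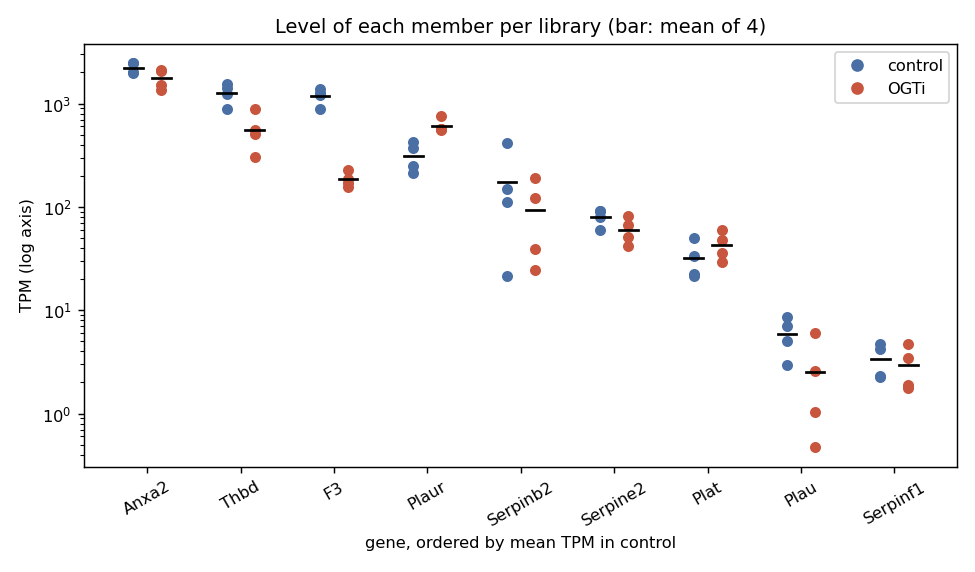
TPM of the 9 members on a log axis, as points for each of the 4 libraries of a group, ordered by the mean in control. Anxa2, Thbd and F3 led in control at mean TPM of 2223, 1271 and 1180, and in OGTi libraries Plaur (610) stood above F3 (185).

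Promoter sequences from RefSeq (listed on GRCm38.p6, 250 bases before to 50 bases after the start of a gene) were matched for 6 of the 9 members, in 7 windows, and each window was found at 1 place of GRCm39. Plat, Plau and Thbd were not matched. The windows of F3 and Plaur are shown because these are the members that moved furthest in opposite directions, and those of Anxa2 and Serpinb2 because they carry the same letters and their RNAs did not pass the test. Capitals mark TGANTCA, the letters of the AP-1 element, which are their own reverse complement and so are read once for both strands.
F3: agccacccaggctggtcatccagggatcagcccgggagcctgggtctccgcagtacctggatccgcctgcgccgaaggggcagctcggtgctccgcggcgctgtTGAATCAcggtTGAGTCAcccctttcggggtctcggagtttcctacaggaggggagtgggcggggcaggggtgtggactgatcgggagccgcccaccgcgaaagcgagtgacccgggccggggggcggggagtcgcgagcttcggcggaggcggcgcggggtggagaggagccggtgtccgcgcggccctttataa
Plaur: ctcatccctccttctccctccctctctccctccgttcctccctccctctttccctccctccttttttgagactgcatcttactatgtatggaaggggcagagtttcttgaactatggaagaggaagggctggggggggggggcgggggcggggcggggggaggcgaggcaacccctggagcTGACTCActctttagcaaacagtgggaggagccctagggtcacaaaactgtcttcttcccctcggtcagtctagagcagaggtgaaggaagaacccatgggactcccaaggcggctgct
Anxa2: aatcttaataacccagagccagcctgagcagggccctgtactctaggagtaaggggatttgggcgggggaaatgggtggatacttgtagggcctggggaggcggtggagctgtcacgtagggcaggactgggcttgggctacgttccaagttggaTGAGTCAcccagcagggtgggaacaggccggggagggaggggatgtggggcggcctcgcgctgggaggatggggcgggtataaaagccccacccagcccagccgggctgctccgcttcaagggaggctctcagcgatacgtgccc
Serpinb2: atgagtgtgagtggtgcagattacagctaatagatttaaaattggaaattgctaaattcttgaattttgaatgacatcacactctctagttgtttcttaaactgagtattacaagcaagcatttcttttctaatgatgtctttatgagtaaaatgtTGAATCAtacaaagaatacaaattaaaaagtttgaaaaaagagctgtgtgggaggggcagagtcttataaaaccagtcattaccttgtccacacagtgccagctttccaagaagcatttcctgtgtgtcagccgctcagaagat
The windows lie on the plus strand of GRCm39 at chr3:121516936-121517235 for F3, chr7:24161658-24161957 for Plaur, chr9:69360715-69361014 for Anxa2 and chr1:107438903-107439202 for Serpinb2. F3 held the letters at 2 places, TGAATCA beginning at position −146 and TGAGTCA at −135 from the start site. Plaur held TGACTCA at −69, Anxa2 TGAGTCA at −95 and Serpinb2 TGAATCA at −94. A second, overlapping window of Serpinb2 held the same letters, and the windows of Serpine2 and Serpinf1 held none. Of 32851 RefSeq windows of the same length, 7.81% held the letters at least once and 0.46% at 2 or more places. The letters therefore stood in the windows of genes that were higher (Plaur), lower (F3) and not called (Anxa2, Serpinb2). The windows were also searched on both strands for GGAATG (TEAD, in 14.7% of all windows), TGACGTCA (CRE, 1.79%) and the NF-kB element (1.63%), and none of the 7 windows held any of them. TATAAA, also read on both strands, was in both Serpinb2 windows and in those of Anxa2 and, on the minus strand at position 44 after the start, F3 (13.6% of all windows), and CACCC, read on both strands for the KLF family, was in those of F3, Anxa2 and Serpinf1 (57.5%). A match to these letters describes the sequence and does not show that a factor binds there.

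The 2 activators differed in level and in direction. Plat, at chromosome 8 (23247709 to 23272871, plus strand, 14 exons in the GENCODE vM39 model on GRCm39), stood at 27.7, 28.8, 62.2 and 42.7 CPM of the TMM-adjusted library size in control replicates 1 to 4, and at 54.4, 49.7, 96.1 and 73.5 CPM in OGTi replicates 1 to 4. The OGTi value was the higher of every pair, but the groups overlapped, because control replicate 3 lay above OGTi replicates 1 and 2. Plat was 1.73-fold higher with OGTi (log2 fold change 0.79 ± 0.20, SE, 95% interval 0.35 to 1.23, edgeR adjusted p = 0.0211). The 4 within-pair differences were close to each other, at 0.97, 0.78, 0.63 and 0.78 on the log2 scale. Without the replicate block the log2 fold change was 0.76 and the edgeR adjusted p 0.125, so the call of Plat rested on the pairing. Leaving out replicate 2, 3 or 4 also ended the call, with edgeR adjusted p of 0.0548, 0.0900 and 0.0615 and log2 fold changes of 0.82, 0.85 and 0.81.

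Plau, encoding urokinase, lies at chromosome 14 (20886722 to 20893453, plus strand, 11 exons). It stood at 6.05, 3.53, 8.01 and 10.2 CPM in control replicates 1 to 4 and at 0.804, 3.32, 1.55 and 8.70 CPM in OGTi replicates 1 to 4. Replicates 1 and 3 carried nearly all of the difference, since the within-pair values were −2.87, −0.09, −2.35 and −0.23 on the log2 scale. OGTi replicate 1 rested on 28 counts (exact Poisson 95% interval 18.6 to 40.5, counting error only) against 235 in control replicate 1, so that pair was apart beyond counting error. Over the 4 pairs the log2 fold change was −1.34 ± 0.49 (SE, 95% interval −2.43 to −0.25), and Plau did not pass the edgeR test (adjusted p = 0.0867). It did pass with DESeq2 (log2 fold change −1.32, adjusted p = 0.0323) and with edgeR on all genes without the filter on low counts (−1.35, adjusted p = 0.00399). Without the replicate block it was −0.95 (edgeR adjusted p = 0.331). It was −0.84 without replicate 1 and −0.97 without replicate 3 (edgeR adjusted p of 0.267 and 0.284), and −1.78 without replicate 2 and −1.77 without replicate 4 (0.0570 and 0.0825). Plat RNA exceeded Plau RNA 3.88 to 7.60 times in TPM in control libraries and 7.85 to 62.1 times in OGTi libraries, a description for which no test was run. Plasminogen itself (Plg), the substrate of both activators, had 1 count in total over the 8 libraries.

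Among the cell-surface genes, the urokinase receptor rose and annexin A2 did not pass the test. Plaur, a GPI-anchored receptor that concentrates urokinase on the membrane (chromosome 7, 24161875 to 24175394, plus strand, 7 exons), stood at 325, 161, 184 and 276 CPM in control replicates 1 to 4 and at 626, 456, 719 and 519.8 CPM in OGTi replicates 1 to 4. All OGTi libraries were above all control libraries. Plaur was 2.52-fold higher with OGTi (log2 fold change 1.33 ± 0.23, SE, 95% interval 0.83 to 1.83, edgeR adjusted p = 0.00337), and the differences within pairs ran from 0.91 (pair 4) to 1.97 (pair 3). It was called in all 15 alternative analyses, with log2 fold changes from 1.00 to 1.48. Of the macrophage markers, whose cells also express Plaur, Cd68 was higher (edgeR adjusted p = 0.00154) and Cd14 was lower, while the 5 others did not pass, and the part of macrophages in the Plaur result was not tested. Summed over the list, the ranges of macrophage marker RNA in control and OGTi overlapped, as given above, a comparison that leaves the pairing aside. Cd68 stood at 17.5, 13.8, 12.2 and 5.47 CPM in control and 47.5, 32.3, 28.8 and 13.7 CPM in OGTi replicates 1 to 4. Lyz2 stood at 7.05, 14.1, 68.0 and 31.2 CPM and 12.0, 19.6, 88.0 and 29.9 CPM. Cd14 stood at 10.8, 8.39, 13.2 and 14.9 CPM and 4.95, 7.05, 5.79 and 4.55 CPM.

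Anxa2, a calcium-dependent membrane-binding protein (chromosome 9, 69360542 to 69399077, plus strand, 13 exons), stood at 1487, 1861, 1791 and 1509 CPM in control replicates 1 to 4. In OGTi replicates 1 to 4 it stood at 2296, 1673, 1418 and 1240 CPM. Pair 1 went up by 0.63 on the log2 scale and the other 3 pairs went down by between 0.15 and 0.34, so the OGTi libraries lay on both sides of the control range. The log2 fold change was −0.04 ± 0.20 (SE, 95% interval −0.49 to 0.41, edgeR adjusted p = 0.923). With upper-quartile factors it was 0.09, but relative to the median of all genes it was −0.04 with either scaling. S100a10, whose protein pairs with annexin A2 at the membrane and binds plasminogen, moved differently. It stood at 167, 195, 145 and 137 CPM in control replicates 1 to 4 and at 678, 296, 282 and 408 CPM in OGTi replicates 1 to 4, and was 2.44-fold higher (log2 fold change 1.28 ± 0.25, SE, edgeR adjusted p = 0.00667). The groups did not overlap for S100a10, and OGTi replicate 1 was the highest library both for it and for Anxa2.

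**Figure D3:**
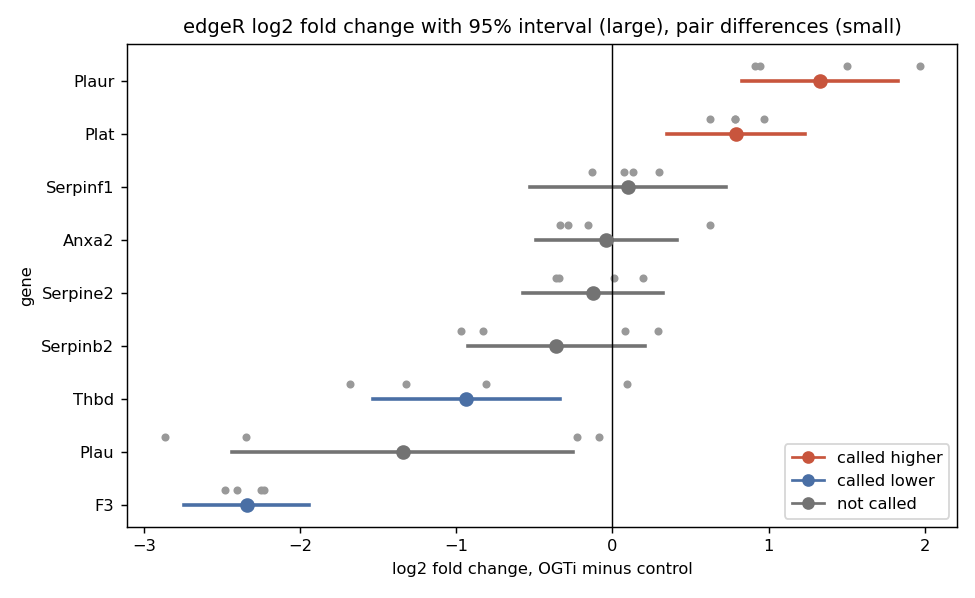
Log2 fold change of OGTi over control for the 9 members with 95% intervals from edgeR, beside the difference within each of the 4 pairs. The intervals of Plat and Plaur lay above 0 and those of F3, Thbd and Plau below it. Plau did not pass after adjustment (adjusted p = 0.0867).

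None of the 3 serpins passed the test, and their intervals left room for differences of different size. Serpine2, protease nexin 1, an inhibitor of thrombin, urokinase and the tissue-type activator, lies at chromosome 1 (79763323 to 79839144, minus strand, 9 exons). It stood at 69.2, 104, 101 and 90.5 CPM in control replicates 1 to 4 and at 69.8, 82.5, 116 and 70.5 CPM in OGTi replicates 1 to 4. The groups overlapped, 2 pairs went up and 2 went down, and the log2 fold change was −0.12 ± 0.20 (SE, 95% interval −0.57 to 0.33, edgeR adjusted p = 0.734). The interval leaves out a change of 2-fold in either direction.

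Serpinb2, plasminogen activator inhibitor 2, an inhibitor of urokinase that is largely kept inside the cell, lies at chromosome 1 (107428593 to 107463208, plus strand, 8 exons). It was the most variable member among control cultures, at 114, 21.8, 147 and 418 CPM in control replicates 1 to 4 and 58.3, 26.7, 156 and 235 CPM in OGTi replicates 1 to 4. Control libraries differed 19.2-fold between lowest and highest and OGTi libraries 8.80-fold, where Plau spread further (10.8-fold). In both groups replicate 2 was the lowest and replicate 4 the highest. The within-pair differences were −0.97, 0.29, 0.08 and −0.83, and the log2 fold change was −0.36 ± 0.26 (SE, 95% interval −0.93 to 0.21, edgeR adjusted p = 0.376). Serpinb10, which shares same-strand exons with Serpinb2 in the GENCODE model, had 9 counts in total over the 8 libraries.

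Serpinf1, pigment epithelium-derived factor, a secreted serpin that acts without inhibiting proteases, lies at chromosome 11 (75299998 to 75322362, minus strand, 8 exons). It stood at 1.70, 1.65, 3.00 and 3.41 CPM in control replicates 1 to 4 and at 1.87, 1.504, 3.16 and 4.19 CPM in OGTi replicates 1 to 4. Replicates 3 and 4 were the higher ones in both groups. The log2 fold change was 0.10 ± 0.28 (SE, 95% interval −0.53 to 0.72, edgeR adjusted p = 0.859).

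Both coagulation regulators were lower with OGTi. F3, tissue factor, the membrane receptor of factor VII, lies at chromosome 3 (121516610 to 121528820, plus strand, 6 exons). It stood at 1207, 845, 1267 and 1141 CPM in control replicates 1 to 4 and at 216, 177, 269.6 and 215 CPM in OGTi replicates 1 to 4. The highest OGTi library was below the lowest control library. F3 fell by 2.34 on the log2 scale (SE 0.18, 95% interval −2.74 to −1.94, edgeR adjusted p = 0.000186), or 5.08-fold. The pairs differed by −2.48, −2.25, −2.23 and −2.40, the closest spread among the called members. All 15 alternatives called it lower, with log2 fold changes from −2.67 to −2.22. Transcripts on the opposite strand overlap its exons in GENCODE, the libraries were made with a strand-specific kit, and the authors counted reads with a strand setting.

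Thbd, thrombomodulin, lies at chromosome 2 (148216045 to 148250201, minus strand, 1 exon in the canonical model). It stood at 2845, 1797, 2450.1 and 3104 CPM in control replicates 1 to 4 and at 887, 1920, 1395 and 1242 CPM in OGTi replicates 1 to 4. The groups overlapped through replicate 2, where the OGTi library was slightly above its control. Thbd was 1.91-fold lower (log2 fold change −0.94 ± 0.27, SE, 95% interval −1.54 to −0.34, edgeR adjusted p = 0.0371), with pairs of −1.68, 0.10, −0.81 and −1.32. Leaving out replicate 1, 3 or 4 ended the call, with log2 fold changes of −0.68, −0.98 and −0.79 and edgeR adjusted p of 0.117, 0.0808 and 0.165. Without replicate 2 the log2 fold change was −1.25 and the adjusted p 0.0114. Of the endothelial markers, whose cells also express Thbd, Tek and Lyve1 were lower and the 5 others did not pass, and Cdh5 was at 0 in 6 of 8 libraries. The endothelial list summed to between 3.36 and 7.54 CPM in control and between 1.04 and 2.36 CPM in OGTi, without overlap. Much of that difference was Tek, at 4.42, 4.03, 2.64 and 1.495 CPM in control and 0.134, 0.333, 0.649 and 0.0854 CPM in OGTi replicates 1 to 4, while Pecam1 stood at 1.33 on the log2 scale (edgeR adjusted p = 0.274). The part of endothelial cells in the Thbd result was not tested. Mesothelial cells express Thbd too, and that list of 6 markers summed to between 51.0 and 84.6 CPM in control and between 28.5 and 49.2 CPM in OGTi, also without overlap. That sum was nearly all Krt19, at 83.1, 80.7, 67.2 and 48.7 CPM in control and 40.7, 46.4, 40.3 and 27.3 CPM in OGTi replicates 1 to 4 (log2 fold change −0.66, edgeR adjusted p = 0.0462). The 4 others tested did not pass and differed in sign, and the part of mesothelial cells was not tested. TPM of F3 relative to Thbd was 0.780 to 1.10 in control libraries and 0.196 to 0.515 in OGTi libraries, given as a description with no test.

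**Figure D4:**
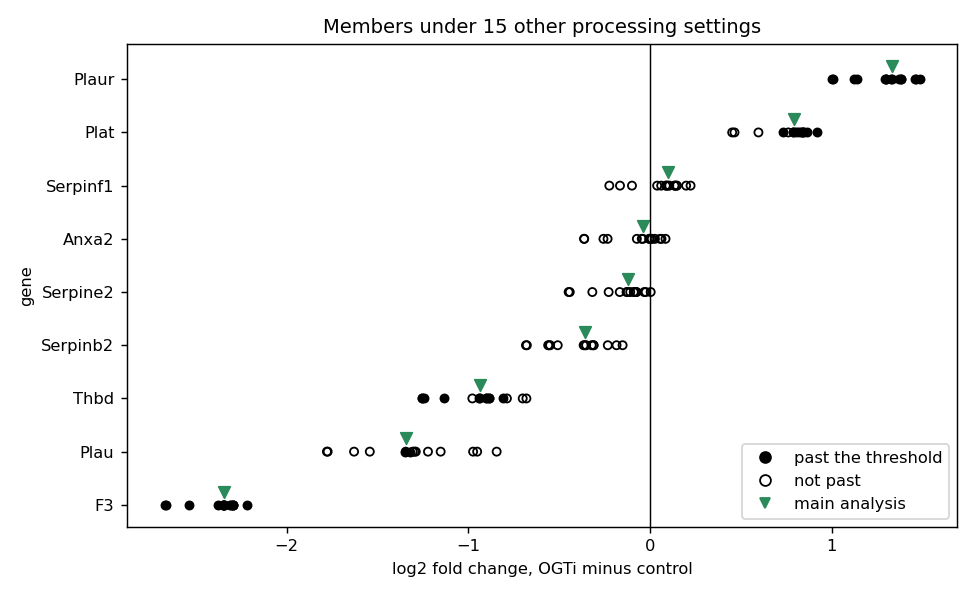
Log2 fold change of each member in the reported analysis and in the 15 alternative analyses, with filled points past the threshold and open points not past it. The alternatives are not told apart by setting. Plaur and F3 were called in every one, Plat was called in 7 of 15 and Thbd in 9 of 15, and Plau, not called in the reported analysis, was called in 2.

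Around the members, further genes were counted from fixed lists. The plasminogen and coagulation lists were written from general knowledge, with earlier results of these data known. The serpin and annexin lists are families by name, every gene whose symbol begins with Serpin or Anxa and is no member. In the plasminogen list (34 genes with plasminogen-binding proteins, clearance receptors, other proteases and inhibitors), 27 were tested, 3 were called higher and 4 lower, with a median log2 fold change of −0.15. Over all genes tested 8.13% were higher and 10.2% lower, with a median of 0.01, and the list counts here and below, small as they are, are to be read against those shares. Besides S100a10, Serpini1 (neuroserpin, an inhibitor of the tissue-type activator; log2 fold change 1.16, edgeR adjusted p = 0.00521) and Serpinb6a (an inhibitor of intracellular and trypsin-like proteases; 0.98, 0.00720) were higher. Hgf, hepatocyte growth factor, a plasminogen-related protein that proteases of this family activate, stood at 69.3, 44.1, 105 and 137 CPM in control and at 13.1, 22.7, 19.6 and 21.6 CPM in OGTi replicates 1 to 4, with no overlap. It fell by 2.13 on the log2 scale (edgeR adjusted p = 0.00156). Serpinb8 (−1.44, adjusted p = 0.0159), St14, the membrane protease matriptase (−0.99, 0.0405), and Lrp1, the receptor that clears activator and inhibitor complexes (−0.97, 0.0111), were lower too by edgeR. The calls of these last 3 did not hold without the replicate block, where 1 gene of this list, Hgf, was called lower (log2 fold changes of −1.46, −0.97 and −0.95 and edgeR adjusted p of 0.0774, 0.0754 and 0.0860 for Serpinb8, St14 and Lrp1). Without replicate 3, 2 genes of the list were lower, with St14 at −0.88 and Lrp1 at −0.88 no longer called, and without replicate 4, 1 was lower, with Serpinb8 (−1.43), St14 (−0.87) and Lrp1 (−0.91) not called. Without replicate 1, Serpinb8 (−1.17) and St14 (−0.96) were not called.

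In the coagulation list (35 genes), 21 were tested, 1 was higher and 3 lower, with a median of −0.30. Procr, the endothelial protein C receptor, which presents protein C to the thrombin and thrombomodulin complex, was the one called higher. It stood at 130, 154, 99.4 and 153 CPM in control and at 571, 479, 600.1 and 936 CPM in OGTi replicates 1 to 4, with no overlap, and was 4.74-fold higher (log2 fold change 2.25 ± 0.22, SE, edgeR adjusted p = 0.000317). The protein C receptor and thrombomodulin RNAs thus moved in opposite directions. Tfpi2, a Kunitz inhibitor that also blocks plasmin (−1.01, adjusted p = 0.01002), and Anxa1 (−1.17, 0.00572) were lower by edgeR, and Anxa1 lost its call without the replicate block (−1.06, adjusted p = 0.0718) and Tfpi2 without replicate 3 (−0.998, adjusted p = 0.0616). F2rl3, a thrombin receptor under 1 CPM on average, was the remaining gene called lower (−2.19, adjusted p = 0.0330), named after its values were seen.

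Of the other serpins, 34 of 62 were tested, 4 were higher and 3 lower, with a median of −0.61. Called serpins lay in both directions. Serpinb9b (log2 fold change 1.01, edgeR adjusted p = 0.0143), Serpini1 and Serpinb6a were higher, and Serpinb6b (−2.87, 0.000201), Serpinb8 and Serpinb9 (−1.38, 0.00297) were lower. Serpinb6a, Serpinb6b, Serpinb9 and Serpinb9b belong to families of near copies, so how reads were split between copies is uncertain. Serpinb6c, at under 1 CPM and 0 counts in 2 control libraries, was also called higher and is named after its values were seen. Of the 11 other annexins, all were tested, 1 was higher and 3 lower, with a median of −0.47. Anxa9 was higher (1.24, edgeR adjusted p = 0.0111), and Anxa1, Anxa3 (−0.92, 0.00752) and Anxa6 (−0.84, 0.0168) were lower, whereas Anxa2 did not pass. Serpinb9b, Anxa9 and Anxa6 were not called without replicate 3 (0.97, 1.28 and −0.77) or without replicate 4 (0.83, 1.18 and −0.68), which left no annexin called higher. In the limma fits on log2(TPM + 1) and log2(TPM + 0.1), Anxa9 was 0.23 and 0.40 and not called (adjusted p of 0.316 and 0.378). Many listed genes were near the floor. With a mean of at least 1 CPM the list medians were −0.47, −0.20, −0.52 and −0.40 for the plasminogen, coagulation, serpin and annexin lists, against −0.08 over the 12525 genes tested at that level, of which 10.3% were called higher and 15.1% lower. Serpini1, Serpinb6a, Serpinb8 and Anxa1 stand in 2 lists each.

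**Figure D5:**
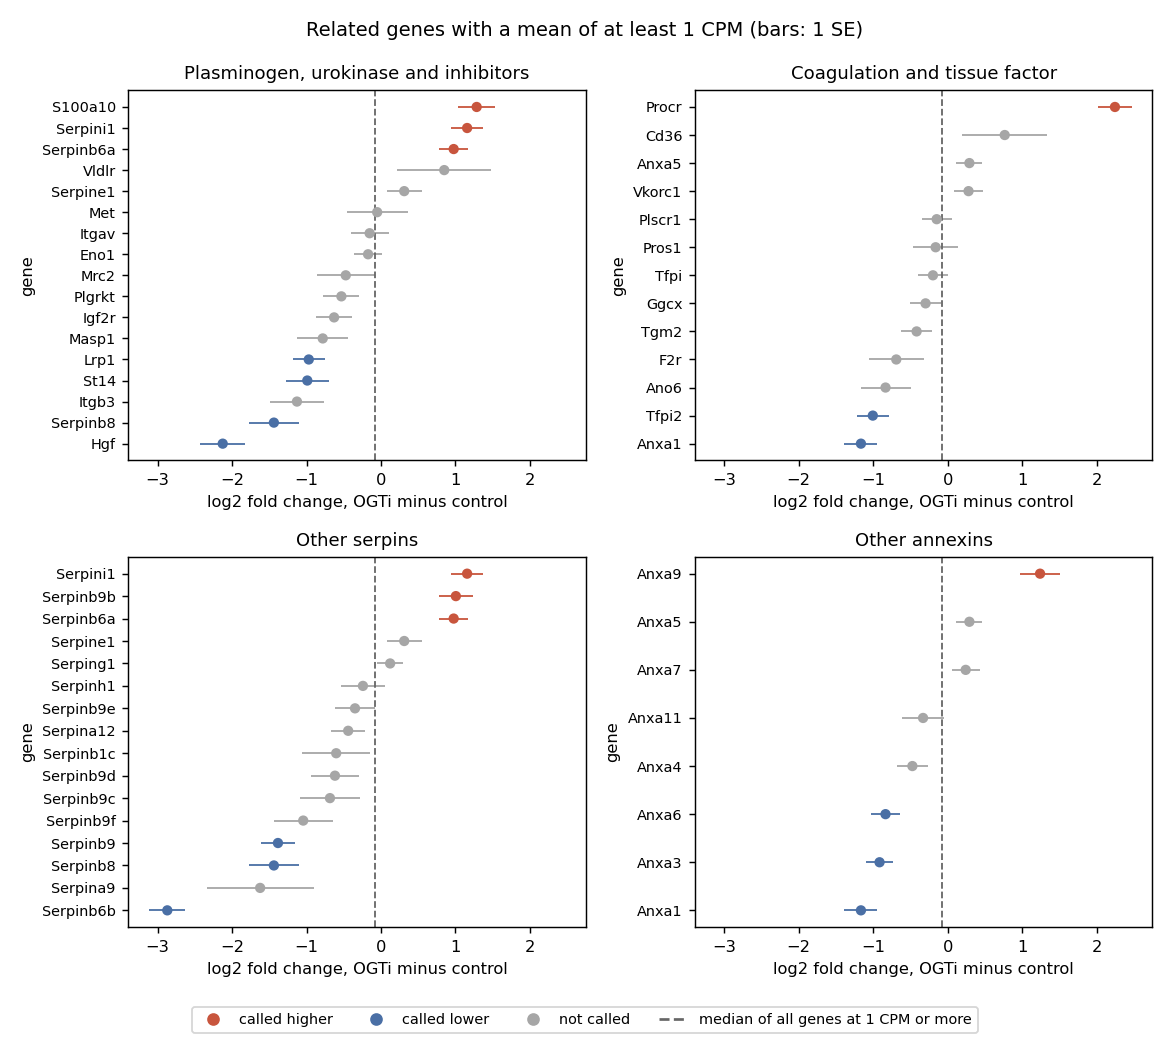
Log2 fold change of OGTi over control for the genes of the plasminogen, coagulation, serpin and annexin lists, in 4 panels. Genes with a mean of at least 1 CPM are drawn, called or not, and the bars are 1 SE, narrower than 95% intervals. Procr (2.25) and S100a10 (1.28) stood furthest above 0 in the coagulation and plasminogen panels, and Serpinb6b (−2.87) and Hgf (−2.13) furthest below it in the serpin and plasminogen panels.

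For each called member, the genes with the most similar within-pair differences were sought among 12524 other genes with a mean of at least 1 CPM, by the root mean square (RMS) distance over the 4 pairs in log2 CPM. These are descriptions over 4 pairs. For Plat they were Smim14 (0.0893) and Zfp963 (0.101), and for Plaur Ptpre (0.158) and Gm20337 (0.187). For F3 they were Pole2 (0.119) and Ch25h (0.151), and for Thbd Srgap3 (0.120) and Adamts12 (0.143). Srgap3 shared with Thbd the near-zero pair 2, at 0.08 against 0.10, but its own edgeR adjusted p was 0.0648. Zfp963 did not pass either (edgeR adjusted p = 0.0512), and the other 6 passed.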

How the data were processed

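RNA of 8 libraries was sequenced after oligo-dT enrichment. Per the submitters' processing notes and the study's methods, the authors aligned reads to GRCm39 with Bowtie2 2.3.5.1 and estimated expected counts and TPM per gene with RSEM 1.3.1 (strand-specific, GENCODE annotation), and DESeq2 1.36.0 is also named there. The deposited expected counts and TPM were used. A deposited table of the authors' own comparison (fold changes and p-values) was not used. Expected counts were rounded to whole numbers (0.251% to 0.978% of detected genes per library were fractional, and all 72 member values were whole). Genes with a total of at least 10 counts were fitted in edgeR 4.0.16 (R 4.3.3) with TMM factors, the replicate number as a block, quasi-likelihood F tests and Benjamini-Hochberg adjustment over 19963 genes, called at an adjusted p of at most 0.05. CPM used the TMM-adjusted library size, and the library total for marker lists. Pair differences used log2 CPM with a prior count of 1. The script was tested on simulated counts.

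The pairing comes from the study's methods. Deviations from the group means correlated at 0.149, 0.202, 0.0835 and 0.289 within numbers 1 to 4, and between −0.274 and 0.183 across numbers. DESeq2 1.42.0 and limma 3.58.1 (log2(TPM + 1) and log2(TPM + 0.1)) were alternatives. Members, lists and alternatives were chosen with earlier results of these data known. All members are named. From each list, the 4 called genes with the largest absolute log2 fold change in each direction and a mean of at least 1 CPM are named, and for each called member the 2 genes nearest in pair differences. Promoter windows came from RefSeq and gene models from GENCODE vM39, whose release was not necessarily the authors'. Results for 1 gene of the lists are not reported here.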

Additional observations from a re-analysis of the deposited data

Results flagged for a closer look

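Among 50 sets of 4 libraries (the members and named genes in each group), 3 had 1 library far from the other 3 by Dixon's test at the 95% level, where chance gives about 2.5. None was a member. Serpini1 stood at 103.8 CPM in OGTi replicate 3, against 73.37 to 77.25 CPM in the other OGTi libraries. Serpinb6a stood at 636 CPM in OGTi replicate 1, against 441.6 to 453 CPM in the others. Serpinb9b stood at 908.4 CPM in OGTi replicate 2, against 1042 to 1049 CPM in the others. In each of these genes the outlying library was still above all 4 control libraries.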

How the results depend on the processing

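Plaur and F3 kept their direction and call under all 15 alternatives, and Serpinb2 kept its direction and stayed uncalled. The cause of the changes below was not tested. Without the replicate block, 1 member was called higher and Plat was 0.76 (adjusted p = 0.125); the block changed no other member's call. DESeq2 gave Plau −1.32, now called, and Anxa2 0.0083, as did RLE scaling for Anxa2 (0.0083). Upper-quartile scaling gave Serpine2 0.0035 and Anxa2 0.085. Library totals alone gave 1 member higher, Plat 0.60, no longer called, and Serpinf1 −0.10. With no low-count filter Plau was −1.35 and called. With filterByExpr 1 member was lower and Thbd, uncalled, was −0.90. limma on log2(TPM + 1) and log2(TPM + 0.1) gave 3456 and 3473 genes lower, 1 member higher each, Plat 0.45 and 0.46, uncalled, and Serpinf1 −0.17 and −0.22. With the length trend removed 1 member was lower and Thbd, uncalled, was −0.70. At an adjusted p of at most 0.01, 751 genes were higher and 917 lower, with 1 member each way, and Plat (0.79) and Thbd (−0.94) were uncalled. Leaving out each replicate in turn gave 843 to 1433 genes higher and 1062 to 1744 lower (fewest without replicates 3 and 4), 1 to 2 members higher and 1 to 2 lower, Plat 0.73 to 0.85, Thbd −1.25 to −0.68 and Anxa2 −0.26 to 0.063.

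The share of calls that were higher was 44.3% with TMM, 54.2% with upper-quartile factors and 30.1% with library totals, as the median of all genes moved from 0.01 to 0.13 and −0.19. Among listed genes of at least 1 CPM, the no-block fit and the adjusted p of at most 0.01 each left 1 plasminogen and 1 coagulation gene lower, and both TPM fits and the adjusted p of at most 0.01 left 0 annexins higher. Leaving out each replicate gave 1 to 5 plasminogen and 1 to 2 coagulation genes lower and 0 to 1 annexins higher. Relative to that median of all genes, Plat was 0.79, 0.79 and 0.78, Plaur 1.33, 1.33 and 1.32, and Thbd −0.94, −0.94 and −0.95. Plau and Serpinf1, at 28 to 377 and 48 to 130 counts a library, had the fewest counts of the 9.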
